A study of Mus musculus with 10 samples.

Results

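Of the 24525 genes in the deposited expression table, 36 that encode aminoacyl-tRNA synthetases are described here, the enzymes that join each amino acid to its transfer RNA. They were taken by gene symbol: an amino acid letter followed by "ars", with the 2 at the end of a symbol marking the mitochondrial enzyme, together with Eprs, Farsa and Farsb. These were 20 genes counted as cytosolic and 16 as mitochondrial, and all 36 were kept by the expression filter, an average over the 10 libraries of 1 FPKM or more. FPKM are sequenced fragments scaled by transcript length and by the mapped fragments of the library. The rule itself reads no measured value.

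The libraries came from the colon of male mice of the strain C57BL/6 (C57BL/6N in the growth protocol) treated with azoxymethane (AOM) and dextran sulfate sodium (DSS), which together induce colon tumours in an inflamed gut. AOM is a mutagen and DSS injures the colonic epithelium. The labels give an age of 7 weeks for the mice of the study. The treated mice were given 12.5 mg/kg AOM and, a week later, began 3 cycles of 2% DSS for 5 days and water for 16 days. Tissue was labelled as 10 weeks after AOM, and both groups shared this treatment: 5 libraries were labelled CRC-tumor and 5 Adjacent-normal. The 3 untreated mice named in the labels are in none of these libraries, so adjacent tissue is not untreated colon. The titles number each group 1 to 5, but every library carries the name of 1 and the same mouse in its source label, so which libraries share an animal is not settled. Tests below thus rest on the spread between libraries, part of which may be technical.

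Cells hold a set of synthetases for translation in the cytosol and another, made from nuclear genes and imported, for the mitochondrial ribosome. Gars and Kars supply the glycine and lysine enzymes of both compartments, and Qars has no mitochondrial counterpart because mitochondria make their glutaminyl-tRNA from glutamyl-tRNA. Eprs joins glutamate and proline activity in a single protein, and Farsa and Farsb encode the subunits of the phenylalanine enzyme. The synthetases fall into catalytic classes I and II, which have unrelated active sites. Several cytosolic enzymes sit in a multisynthetase complex held by the scaffold proteins Aimp1, Aimp2 and Eef1e1. Many cytosolic synthetase genes are known targets of ATF4, the transcription factor of the amino acid response, and tryptophanyl-tRNA synthetase (Wars) is also induced by interferon-gamma.

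Total FPKM lay between 462009 and 484712 per library. Depth is not stated; a rough value from the steps between low FPKM values was 20200000 to 25200000 fragments per library, with 65.7% to 80.2% of 94 to 121 values within 0.2 of a whole number. At these depths the lowest member value, 1.84 FPKM of Ears2 in adjacent sample 2, would rest on about 76 fragments. On the log2(FPKM + 1) scale the median of all tested genes lay 0.35 higher in tumours, so changes near 0.35 follow the bulk of genes. The counts of members and lists below are therefore also given with the median of each library subtracted, which brought this shift to 0.02, and with quantile normalization, which brought it to 0.06. The epithelial markers checked had a mean of 8.87 to 9.36 on that scale in adjacent samples and 7.50 to 8.93 in tumours. Of these 8 markers 7 fell while 1, Krt18, rose by 0.36. The Krt18 call was lost at 0.02 with medians subtracted and kept at 0.57 with quantile normalization. All 6 fibroblast markers rose, from a mean of 3.50 to 4.68 to one of 6.24 to 6.83, as did all 4 endothelial markers, from 1.49 to 2.30 to 2.81 to 3.38. Of 6 leukocyte markers 4 rose and 1 fell (means of 1.82 to 2.89 and 2.87 to 3.84), and of 4 smooth muscle markers 1 rose (1.85 to 3.64 and 2.94 to 3.84). Of all genes tested 57.2% rose and 19.3% fell as deposited, so the leukocyte count is near the share of all genes. With either scaling 3 leukocyte and 3 endothelial markers rose, against 34.5% of all genes with medians subtracted and 36.6% with quantile normalization. None of the 28 markers was at 0 in any library. In bulk tissue, fewer cells of a type and less RNA per cell cannot be told apart, and the part of these shifts in the synthetase values was not tested.

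Most cytosolic synthetase genes were higher in tumours. Of the 20, 17 rose and none fell at a limma adjusted p of 0.05, with a median log2 change of 0.58; the 3 others were Tars, Yars and Wars. Over all 13016 genes tested, 57.2% rose and 19.3% fell, 76.5% in all. With medians subtracted, 12 of the 20 rose and 2, Yars and Wars, fell, against 34.5% and 33.3% of all genes, 67.7% together. With quantile normalization 17 rose and none fell, against 36.6% and 30.2%, together 66.8%. At an unadjusted p under 0.05, 0 cytosolic members were lower as deposited and 1 with quantile normalization. In 16 of the 20 every tumour lay above every adjacent sample, as it did for 46.5% of all genes.

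**Figure D1:**
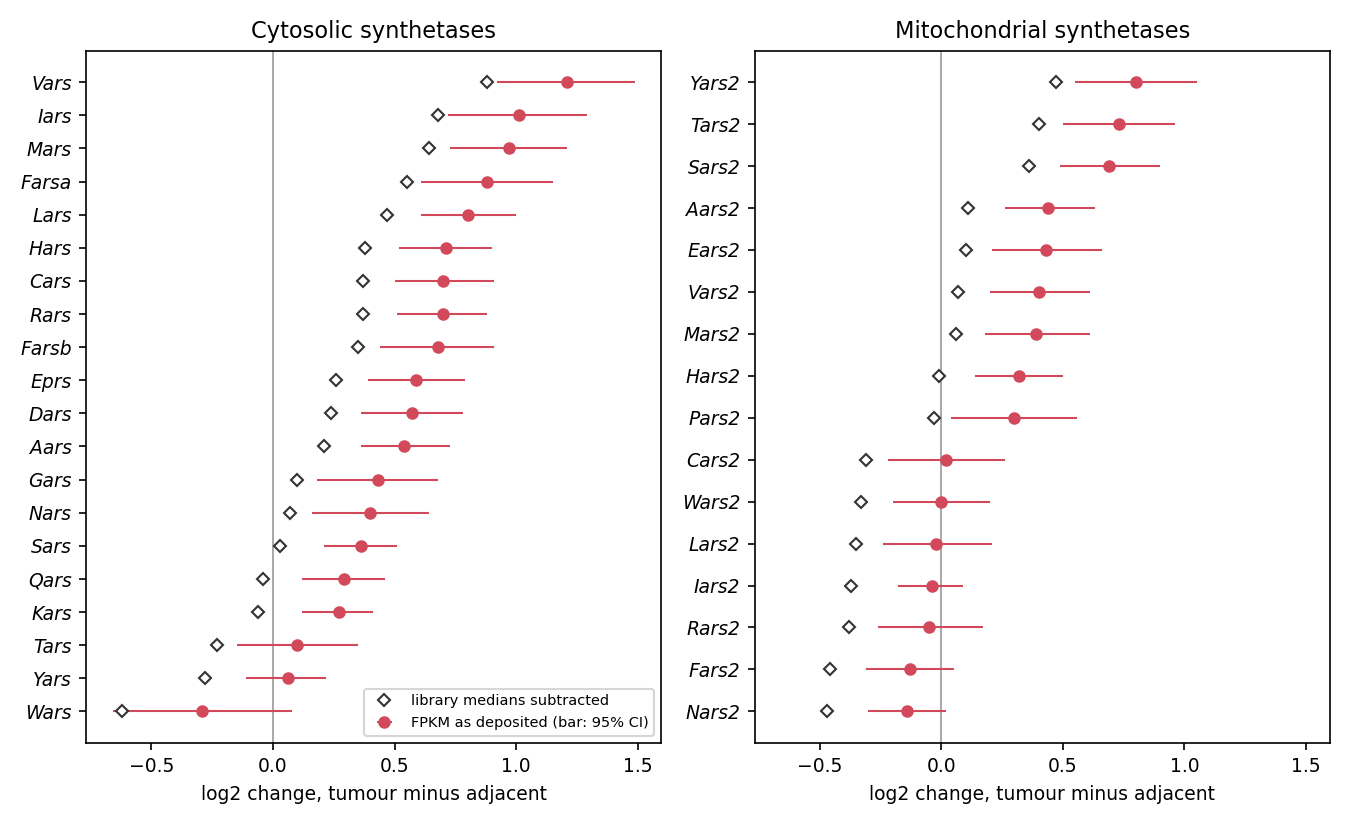
Log2 change, tumour minus adjacent, of each synthetase gene on the log2(FPKM + 1) scale, cytosolic genes at left and mitochondrial genes at right, for n = 5 libraries per group. Filled points with 95% confidence intervals are FPKM as deposited and open diamonds have library medians subtracted; Vars is highest at 1.21 and Wars lowest at -0.29.

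Vars, which charges tRNA with valine, changed most. It was at 30.8, 22.9, 29.8, 24.1 and 31.3 FPKM in adjacent samples 1 to 5 and at 71.0, 48.8, 73.6, 65.7 and 68.2 FPKM in tumours 1 to 5. Every tumour was above every adjacent sample, with tumour 2 the lowest tumour. The mean rose from 27.8 ± 3.96 to 65.5 ± 9.78 FPKM (SD, n = 5 per group), 2.36-fold, or 1.21 on the log2 scale (SE 0.13, limma adjusted p = 2.66e-05). The gene lies on chromosome 17, from 35000987 to 35016322 (GRCm38, GENCODE M21).

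Iars, the isoleucine enzyme, had the next largest change. It was at 22.1, 15.4, 21.0, 16.2 and 19.6 FPKM in adjacent samples and at 40.2, 31.0, 44.7, 34.4 and 44.1 FPKM in tumours. The groups did not overlap, and tumours 2 and 4 were the lowest tumours. The log2 change was 1.01 (SE 0.13, limma adjusted p = 6.23e-05). Mars, the methionine enzyme, which also charges the initiator tRNA, rose from 19.3, 13.1, 15.4, 13.4 and 14.3 FPKM to 32.9, 26.5, 31.3, 28.4 and 32.7 FPKM, by 0.97 on the log2 scale (SE 0.11, limma adjusted p = 3.13e-05). Here too the lowest tumour, tumour 2, was above the highest adjacent sample, adjacent sample 1.

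Leucine and phenylalanine enzymes followed. Farsa, the catalytic alpha subunit of the phenylalanine enzyme, was at 20.7, 13.8, 17.8, 15.2 and 15.9 FPKM in adjacent samples and 34.1, 24.7, 33.0, 30.1 and 35.3 FPKM in tumours, with every tumour above. Its log2 change was 0.88 (SE 0.12, limma adjusted p = 9.52e-05). Its partner Farsb, the beta subunit, changed by 0.68 (SE 0.11). Both subunits rose with either scaling. Lars, the leucine enzyme, was at 16.5, 12.9, 16.4, 13.9 and 15.3 FPKM in adjacent samples and 29.7, 23.3, 28.3, 26.0 and 27.5 FPKM in tumours, which is 0.80 higher on the log2 scale (SE 0.09, limma adjusted p = 2.93e-05). All 3 enzymes for the branched-chain amino acids valine, isoleucine and leucine were thus among the 5 largest changes of the 20 cytosolic genes.

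A middle group rose as deposited and with either scaling: Hars (histidine) by 0.71, Cars (cysteine) and Rars (arginine) by 0.70 each, Eprs by 0.59, Dars (aspartate) by 0.57 and Aars (alanine) by 0.54. Eprs was at 31.5, 23.0, 30.5, 26.0 and 26.4 FPKM in adjacent samples and 43.5, 38.6, 43.7, 38.1 and 44.6 FPKM in tumours (SE 0.09, limma adjusted p = 0.000192). Each tumour was above each adjacent sample. For these 6 genes the log2 change with medians subtracted was 0.21 to 0.38.

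Gars, Nars (asparagine), Sars (serine), Qars and Kars rose by 0.43, 0.40, 0.36, 0.29 and 0.27, which is about the change of the median gene. With medians subtracted none of these passed, at 0.10, 0.07, 0.03, -0.04 and -0.06, so Qars and Kars changed sign, while with quantile normalization all 5 passed, at 0.43, 0.39, 0.22, 0.30 and 0.27. Gars was at 69.3, 49.97, 56.5, 63.0 and 50.3 FPKM in adjacent samples and 70.1, 71.4, 92.4, 72.7 and 85.0 FPKM in tumours. Adjacent sample 1 came within 1 FPKM of the lowest tumour, tumour 1. Kars was at 60.2, 58.8, 62.1, 65.6 and 55.0 FPKM in adjacent samples and 72.4, 67.1, 74.9, 78.0 and 72.0 FPKM in tumours, a narrow gap between groups with every tumour above.

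Tars and Yars, the threonine and tyrosine enzymes, did not pass as deposited. Tars was at 43.5, 31.0, 41.1, 36.7 and 31.0 FPKM in adjacent samples and 33.9, 44.2, 39.6, 36.2 and 41.4 FPKM in tumours, a log2 difference of 0.10 (95% CI -0.15 to 0.35, limma adjusted p = 0.437). Yars was at 24.3, 20.4, 23.9, 25.4 and 20.8 FPKM in adjacent samples and 23.8, 21.8, 25.2, 24.8 and 23.6 FPKM in tumours, a difference of 0.06 (95% CI -0.11 to 0.22, limma adjusted p = 0.515). The groups overlapped for both genes. With medians subtracted Yars fell by 0.28 (limma adjusted p = 0.0057) and Tars was at -0.23 (adjusted p = 0.0788). With quantile normalization they were at -0.15 and -0.01 and did not pass.

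Wars had the lowest log2 change of the 36 genes. It had the highest mean of all 36 genes in adjacent tissue, 82.4 ± 10.3 FPKM, and the sixth highest in tumours, 68.8 ± 19.2 FPKM (SD, n = 5 per group). Adjacent samples were at 79.2, 95.4, 89.0, 80.1 and 68.5 FPKM. Tumours were at 54.1, 96.2, 56.4, 82.0 and 55.4 FPKM, so tumours 2 and 4 lay within the adjacent range and tumours 1, 3 and 5 below it. The log2 difference was -0.29 (SE 0.17, 95% CI -0.66 to 0.08, limma adjusted p = 0.138). The drop was called with medians subtracted, at -0.62 (limma adjusted p = 0.0137), but not with quantile normalization, at -0.30 (0.154). When each library was left out in turn, the drop was called only without tumour 2, at -0.42 (limma adjusted p = 0.0167). Tumour 2 holds the highest Wars value, so leaving it out deepens the drop by construction, and that call is no separate test. Without tumours 2 and 4 the difference was -0.56; since these 2 tumours hold the highest Wars values, it is given as a description with no test.

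Interferon-gamma response genes were measured beside Wars. The 13 genes listed for this response had means of 3.31, 4.70, 4.05, 4.74 and 2.80 on the log2(FPKM + 1) scale in tumours 1 to 5, and 3.24, 4.24, 3.43, 3.29 and 3.11 in adjacent samples. Tumours 2 and 4, the tumours with the most Wars, had the highest tumour means of this list. Their means were also the highest among tumours for the epithelial (8.93 and 8.20) and fibroblast (6.83 and 6.58) markers. The same held for the smooth muscle (3.65 and 3.84) and leukocyte (3.84 and 3.17) markers. For the endothelial markers tumour 2 was highest, at 3.38, but tumour 4, at 2.98, was below tumours 3 and 5. The part of any of these in the Wars values was not tested. Of the 13 genes 3 rose and 1 fell as deposited, where 57.2% of all genes rose and 19.3% fell. With either scaling 2 rose and 1 fell. The shares of all genes were then 34.5% and 33.3% with medians subtracted, and 36.6% and 30.2% with quantile normalization. The genes called included the chemokine Cxcl9, which rose by 1.91 (SE 0.50), and the guanylate-binding protein Gbp4, which rose by 1.33 (SE 0.33). The transcription factor Irf1 fell by 0.71 (SE 0.22). Without adjacent sample 2, 6 of the 13 rose, and without tumour 5, 5 rose; without tumour 2, 2 fell.

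**Figure D2:**
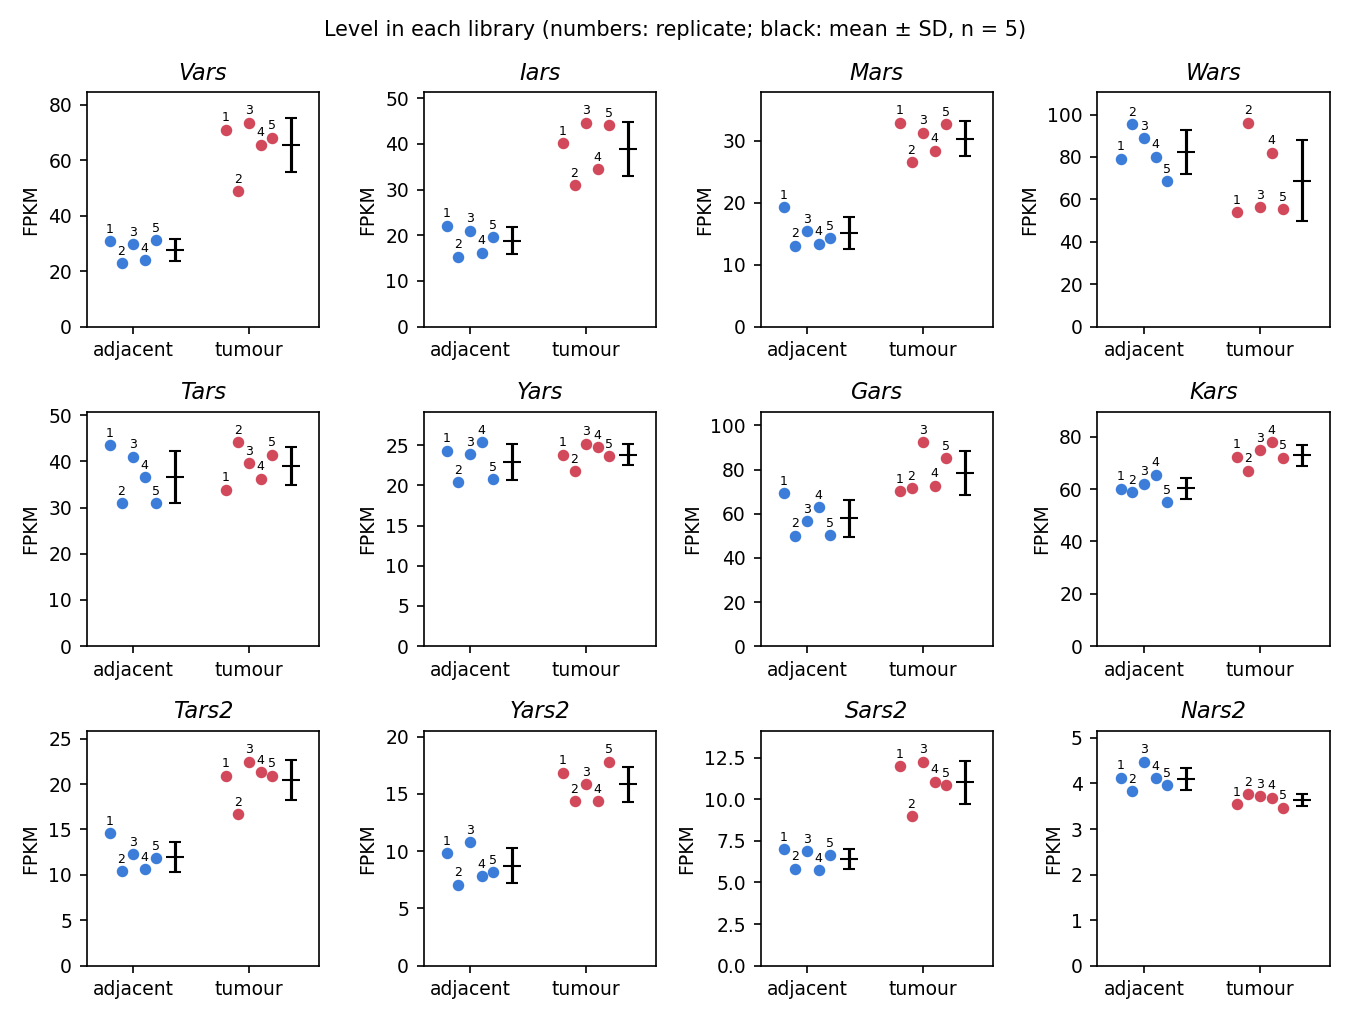
FPKM of 12 synthetase genes in each of 5 adjacent samples and 5 tumours (numbers are the replicates), with the mean ± SD in black. Vars, Iars and Mars do not overlap between groups; Wars is at 96.2 and 82.0 FPKM in tumours 2 and 4 and at 54.1 to 56.4 FPKM in the other 3.

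By role, the 8 members of the multisynthetase complex (Lars, Iars, Mars, Qars, Rars, Kars, Dars and Eprs) all rose, and their median log2 change was 0.64. Outside the complex 9 of 12 cytosolic genes rose, and the median was 0.49. With medians subtracted 6 of the 8 rose, and of the 12 others 6 rose and 2 fell, while with quantile normalization 8 and 9 rose and none fell. The shares of all genes that rose were 57.2% as deposited, 34.5% with medians subtracted and 36.6% with quantile normalization. By catalytic class, 7 of 9 class I genes rose, with a median of 0.70, and 9 of 10 class II genes, with a median of 0.49; Eprs belongs to both. With medians subtracted 6 of the 9 rose and 2 fell, and 5 of the 10 rose and none fell, and with quantile normalization 7 and 9 rose. Class I held the highest value, that of Vars, and the lowest, that of Wars. No test between these subgroups was made.

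All 3 scaffold genes rose as deposited, where 57.2% of all genes rose. Eef1e1 rose from 12.8 ± 3.09 to 28.7 ± 2.99 FPKM (n = 5 per group), by 1.13 on the log2 scale (SE 0.15, limma adjusted p = 6.09e-05). Aimp2 rose by 0.80 (SE 0.10) and Aimp1 by 0.49 (SE 0.08), the last of which did not pass with medians subtracted, at 0.16. All 3 passed with quantile normalization. Of all genes 34.5% rose with medians subtracted and 36.6% with quantile normalization.

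Promoter sequences are shown for the 5 cytosolic genes that hold the letters of the ATF4 response element, because these genes differed widely in their change. RefSeq promoter windows of GRCm38.p6, from 250 bases before to 50 after the start site, matched 27 of the 36 genes, 13 cytosolic and 14 mitochondrial. Vars, Lars, Hars, Cars, Rars, Nars, Wars, Hars2 and Pars2 had no window and were not searched. TGATGNAA was searched on both strands, and so was CACGTG, the E-box bound by MYC; no matches of these motifs overlapped. Of the 13 cytosolic genes 5 held TGATGNAA and 4 held CACGTG (Iars, Aars, Tars and Farsb), and of the 14 mitochondrial genes 0 and 1 (Ears2) did. Over all 32851 windows the shares were 3.97% and 7.15%. A match of letters is a description and not a bound site. Capitals mark TGATGNAA or CACGTG on either strand.
Iars, chr13:49681880-49682179, plus strand: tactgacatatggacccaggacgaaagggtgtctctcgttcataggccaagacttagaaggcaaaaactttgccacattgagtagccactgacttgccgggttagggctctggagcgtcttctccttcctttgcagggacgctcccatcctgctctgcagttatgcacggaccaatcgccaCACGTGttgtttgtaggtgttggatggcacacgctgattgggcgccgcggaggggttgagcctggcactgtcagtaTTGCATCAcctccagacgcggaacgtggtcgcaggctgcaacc
Aars, chr8:111033592-111033891, plus strand: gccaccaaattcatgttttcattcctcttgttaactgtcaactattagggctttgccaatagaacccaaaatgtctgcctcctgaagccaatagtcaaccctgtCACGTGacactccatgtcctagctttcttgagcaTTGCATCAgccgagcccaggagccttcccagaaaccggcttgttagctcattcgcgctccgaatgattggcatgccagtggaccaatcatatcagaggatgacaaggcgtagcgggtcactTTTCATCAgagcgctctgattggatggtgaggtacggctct
Gars, chr6:55037751-55038050, plus strand: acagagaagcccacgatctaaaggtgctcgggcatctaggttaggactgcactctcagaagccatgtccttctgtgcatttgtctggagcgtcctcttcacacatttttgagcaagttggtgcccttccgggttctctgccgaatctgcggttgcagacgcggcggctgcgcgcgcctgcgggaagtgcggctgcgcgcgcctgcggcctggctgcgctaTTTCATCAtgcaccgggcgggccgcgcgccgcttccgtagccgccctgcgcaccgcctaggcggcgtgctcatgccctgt
Tars, chr15:11399609-11399908, minus strand: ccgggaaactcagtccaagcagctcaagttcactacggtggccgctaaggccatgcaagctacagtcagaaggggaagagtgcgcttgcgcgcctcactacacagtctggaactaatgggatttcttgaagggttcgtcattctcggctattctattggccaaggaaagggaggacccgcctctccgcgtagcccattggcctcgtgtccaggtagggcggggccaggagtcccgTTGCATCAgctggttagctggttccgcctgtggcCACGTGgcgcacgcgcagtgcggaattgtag
Yars, chr4:129189653-129189952, plus strand: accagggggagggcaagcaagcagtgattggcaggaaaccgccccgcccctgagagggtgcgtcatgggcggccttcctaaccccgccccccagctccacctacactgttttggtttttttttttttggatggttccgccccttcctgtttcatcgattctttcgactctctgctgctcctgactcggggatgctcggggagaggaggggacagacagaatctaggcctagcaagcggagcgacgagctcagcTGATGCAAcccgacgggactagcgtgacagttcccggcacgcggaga

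The form TGATGCAA or its reverse complement TTGCATCA, held by 0.895% of all windows, was in the promoters of Iars, Aars, Tars and Yars. It began 7 bases after the start site in Iars, 3 after it in Yars, 15 before it in Tars and 112 before it in Aars, which held TTTCATCA as well. The log2 changes of these 4 genes were 1.01, 0.54, 0.10 and 0.06, so genes that share these letters ranged from the second largest cytosolic change to that of Yars, which did not pass. Gars, with TTTCATCA alone, was at 0.43. Iars, Aars and Tars also held the E-box, at 69 bases before, 146 before and 19 after the start site.

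Genes of the amino acid response were mixed. Of 25 tested 16 rose and 2 fell, with a median log2 change of 0.62. With medians subtracted 12 rose and 3 fell, and with quantile normalization 13 and 2. Of all genes 57.2%, 34.5% and 36.6% rose under these settings, so the share as deposited is near that of all genes. The cystine transporter Slc7a11 rose from 1.55 ± 0.64 to 12.8 ± 10.7 FPKM (n = 5 per group), by 2.19 (SE 0.42). Its tumours were at 7.80, 4.65, 31.0, 6.70 and 13.9 FPKM, so tumour 3 raised the mean, and without it the change was 1.81 on the log2 scale. Phgdh, the first enzyme of serine synthesis, rose from 11.9 ± 3.17 to 47.7 ± 14.8 FPKM, by 1.90 (SE 0.23). Slc7a5, Psat1 and Shmt2 of the same list also rose as deposited, by 1.51, 1.43 and 1.40, and with either scaling. Atf4 itself and, from this list, Asns and Chac1 did not pass with or without either scaling, at 0.22, 0.19 and 0.20 as deposited. Ddit3, a stress-response transcription factor, fell by 0.35 (SE 0.14, limma adjusted p = 0.0355), a call lost in 6 of the 10 fits that left out a library (adjacent 1, 2, 3 or 5, tumour 1 or 3; 0.0556 to 0.0852). Eif2ak1, a kinase of eIF2, fell by 0.28 (SE 0.06). Trib3 was below the expression filter and not tested, at means of 0.52 FPKM in adjacent samples and 1.43 FPKM in tumours, with every tumour above.

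Mitochondrial synthetase genes rose in about the share of all genes as deposited, and in a smaller share with either scaling. Of 16, 9 rose and none fell as deposited, where 57.2% of all genes rose, and their median log2 change was 0.31. With medians subtracted 3 rose and 7 fell, with a median of -0.02, against 34.5% and 33.3% of all genes. The counts were the same with quantile normalization, against 36.6% and 30.2% of all genes, and the median was -0.13. At an unadjusted p under 0.05, 0 of the 16 were lower as deposited. In 8 of the 16 every tumour was above every adjacent sample, and in 1, Nars2, every tumour was below, against 46.5% and 14.3% of all genes.

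The 3 mitochondrial genes that rose under each scaling were Yars2, Tars2 and Sars2, which charge tyrosine, threonine and serine. Yars2 was at 9.83, 7.06, 10.8, 7.83 and 8.16 FPKM in adjacent samples and 16.9, 14.4, 15.8, 14.3 and 17.8 FPKM in tumours, which is 0.80 higher on the log2 scale (SE 0.11, limma adjusted p = 9.82e-05). Tars2 was at 14.6, 10.4, 12.3, 10.7 and 11.8 FPKM in adjacent samples and 20.9, 16.7, 22.5, 21.3 and 20.9 FPKM in tumours, a change of 0.73 (SE 0.10, limma adjusted p = 0.000108). Both were without overlap between groups, and in Tars2 tumour 2 stood below the other 4 tumours. Sars2 was at 6.99, 5.82, 6.89, 5.74 and 6.63 FPKM in adjacent samples and 12.0, 9.0, 12.3, 11.1 and 10.8 FPKM in tumours, a change of 0.69 (SE 0.09, limma adjusted p = 7.87e-05), again with every tumour above.

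Aars2, Ears2, Vars2, Mars2, Hars2 and Pars2 rose by 0.44, 0.43, 0.40, 0.39, 0.32 and 0.30 as deposited, near the median gene. None of these passed with medians subtracted (-0.03 to 0.11) or with quantile normalization (-0.21 to 0.04). The groups overlapped for Pars2, and its call was also lost in 6 of the 10 fits that left out a library (adjacent 2, 3 or 4, tumour 1, 3 or 5; limma adjusted p of 0.0554 to 0.089).

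The other 7, Cars2, Wars2, Lars2, Iars2, Rars2, Fars2 and Nars2, did not pass as deposited, at 0.02, 0.00, -0.02, -0.04, -0.05, -0.13 and -0.14. All 7 fell with medians subtracted, by 0.31 to 0.47, and with quantile normalization, by 0.17 to 0.64. Nars2, the asparagine enzyme, was at 4.13, 3.83, 4.48, 4.12 and 3.97 FPKM in adjacent samples and 3.55, 3.76, 3.72, 3.69 and 3.47 FPKM in tumours. Each tumour was below each adjacent sample, though adjacent sample 2 and tumour 2 were close. Fars2, the phenylalanine enzyme, was at 16.0, 15.2, 15.6, 18.1 and 14.5 FPKM in adjacent samples and 15.2, 12.3, 14.6, 15.9 and 14.3 FPKM in tumours. Rars2, the arginine enzyme, was at 16.5, 12.1, 16.5, 15.7 and 12.2 FPKM in adjacent samples and 13.6, 14.6, 14.2, 14.0 and 13.5 FPKM in tumours, with the tumours inside the adjacent range.

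In level per transcript length, Wars led the adjacent samples, followed by Nars at 65.1 ± 10.8, Qars at 63.8 ± 3.59, Kars at 60.3 ± 3.91 and Gars at 57.8 ± 8.33 FPKM (SD, n = 5), of which the last 4 lay within their spread of each other. In tumours the order was Nars at 85.5 ± 7.40, Qars at 78.6 ± 7.52, Gars at 78.3 ± 9.88, Kars at 72.9 ± 4.00, Rars at 70.5 ± 3.11, Wars and Vars, with neighbours again within their spread. Vars moved from rank 11 to rank 7. Ears2, the mitochondrial glutamate enzyme, was the lowest in both groups, at 2.29 ± 0.29 and 3.43 ± 0.42 FPKM.

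Summed over genes, the cytosolic synthetases made up 775, 629, 734, 682 and 642 FPKM in adjacent samples and 952, 924, 996, 951 and 988 FPKM in tumours. The mitochondrial synthetases summed to 175, 143, 168, 161 and 165 FPKM and to 201, 172, 197, 190 and 192 FPKM. The cytosolic sum was 3.89 to 4.42 times the mitochondrial sum in adjacent samples and 4.73 to 5.37 times in tumours, without overlap.

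To compare both enzymes of an amino acid directly, the cytosolic FPKM was divided by the mitochondrial FPKM in each library. A scaling factor of a library cancels in this ratio. It was formed for 15 amino acids, with Eprs serving for glutamate and for proline. The difference between groups was tested with a two-sided exact permutation test over the 252 splits of 10 libraries, for which the smallest possible p is 0.00794; p-values are not adjusted over the 15 ratios. In 8 the ratio was higher in tumours and in 3 lower at an exact p under 0.05. For 8 amino acids all tumours were above all adjacent samples, and for 2 all were below. Ratios of other gene pairs were not computed, so these counts have no background share beside them. Of single genes 76.5% were called as deposited, and groups did not overlap for 46.5% (tumours above) and 14.3% (tumours below).

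**Figure D3:**
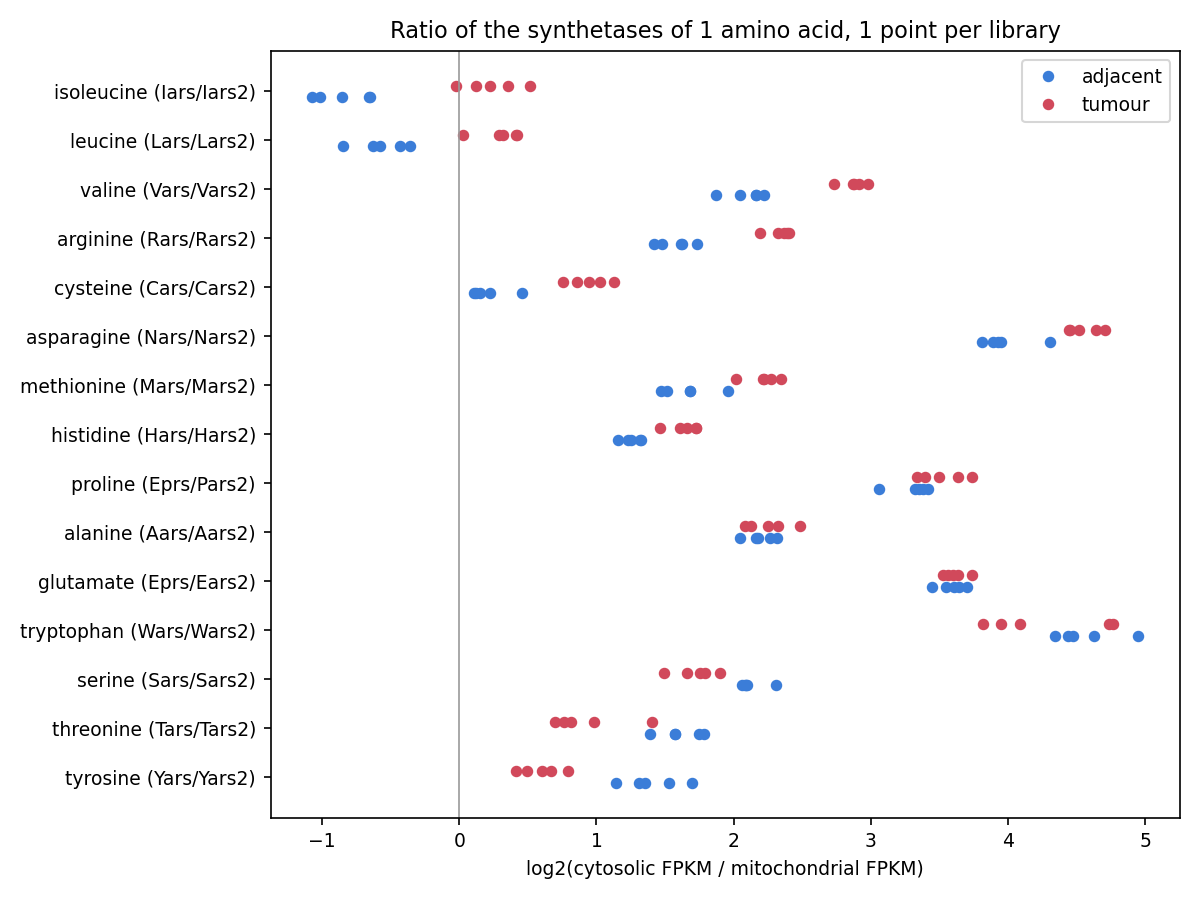
Log2 of the cytosolic over the mitochondrial synthetase FPKM for 15 amino acids, with 1 point for each of 5 adjacent samples (blue) and 5 tumours (red), ordered by the difference between groups. Isoleucine at the top is higher in tumours by 1.09 and tyrosine at the bottom lower, at -0.81.

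The isoleucine ratio, Iars over Iars2, changed most. It was 0.635, 0.494, 0.636, 0.475 and 0.552 in adjacent samples and 1.17, 0.983, 1.43, 1.09 and 1.28 in tumours, 2.13-fold higher (log2 difference 1.09, exact permutation p = 0.00794). The mitochondrial gene was thus the more abundant in all adjacent samples and the cytosolic gene in all tumours but tumour 2. The leucine ratio, Lars over Lars2, moved from 0.557 to 0.779 in adjacent samples to 1.02 to 1.34 in tumours, 1.82-fold higher (exact permutation p = 0.00794). Here the cytosolic gene was the more abundant in every tumour and in no adjacent sample.

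Valine, arginine, cysteine, asparagine, methionine and histidine ratios were higher in tumours by 0.78, 0.76, 0.73, 0.58, 0.55 and 0.38 on the log2 scale, each with an exact permutation p of 0.00794 and no overlap. The valine ratio was 3.66 to 4.66 in adjacent samples and 6.64 to 7.88 in tumours. The proline, alanine and glutamate ratios differed by 0.21, 0.06 and 0.02 and did not pass (exact permutation p = 0.0635, 0.532 and 0.754). With 1 FPKM added to both enzymes the proline and glutamate ratios passed, at 0.29 and 0.16 (exact permutation p = 0.00794 and 0.0159). Proline also passed without tumour 5, at 0.26 (exact permutation p = 0.0159). Tumour 5 held the lowest proline ratio among tumours, 10.1, so leaving it out raises the difference by construction.

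Tyrosine, threonine and serine went the other way. The tyrosine ratio, Yars over Yars2, was 2.48, 2.89, 2.21, 3.24 and 2.55 in adjacent samples and 1.41, 1.52, 1.59, 1.73 and 1.33 in tumours, a log2 difference of -0.81 (exact permutation p = 0.00794), with every tumour below. The threonine ratio, Tars over Tars2, was 2.62 to 3.44 in adjacent samples and 1.62 to 2.65 in tumours, a difference of -0.68 (exact permutation p = 0.0159). Only tumour 2, at 2.65, reached the adjacent range. The serine ratio, Sars over Sars2, was 4.17 to 4.96 in adjacent samples and 2.82 to 3.74 in tumours, a difference of -0.41 (exact permutation p = 0.00794) without overlap. The tryptophan ratio, Wars over Wars2, was 20.3 to 30.9 in adjacent samples and 14.1 to 27.2 in tumours, at -0.29 (exact permutation p = 0.238), and at -0.61 without tumours 2 and 4, which hold the highest tumour ratios, so that no test is given.

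**Figure D4:**
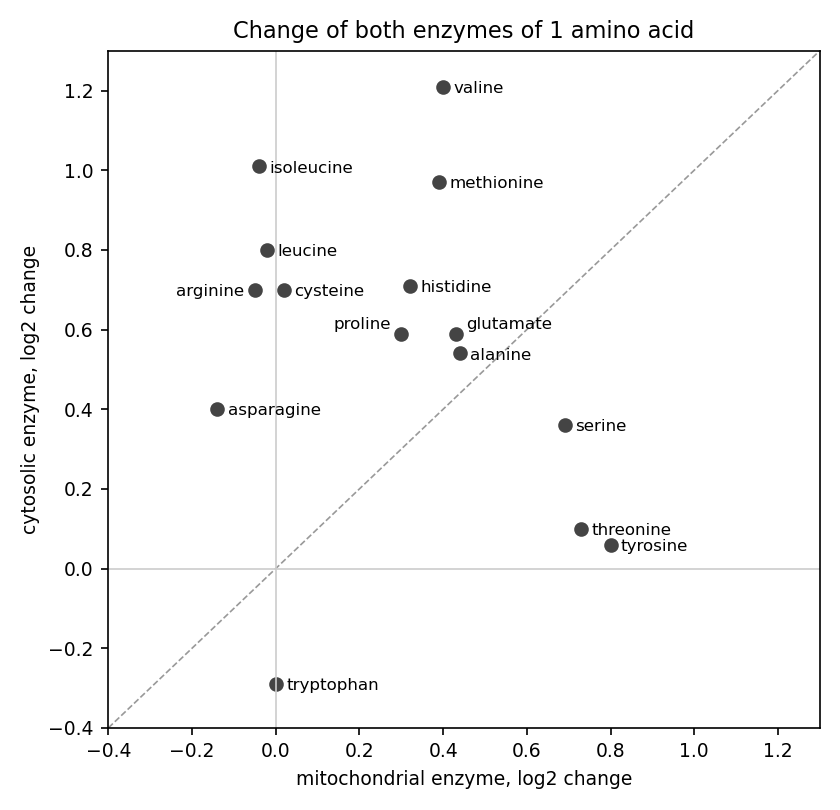
Log2 change, tumour minus adjacent, of the cytosolic enzyme against that of the mitochondrial enzyme for 15 amino acids, with a dashed line of equal change. Isoleucine lies at 1.01 for the cytosolic and -0.04 for the mitochondrial enzyme, and tyrosine at 0.06 and 0.80.

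Genes that serve the same tRNAs were read from lists of the pathway. Of 26 genes of tRNA transcription, maturation and export 22 rose and 1 fell as deposited, 15 and 3 after subtracting medians and 14 and 2 after quantile normalization; the median change was 0.62. The shares of all genes were 57.2% and 19.3%, 34.5% and 33.3%, and 36.6% and 30.2%. Xpot, which exports tRNA from the nucleus, rose by 0.93 (SE 0.11) and Tsen15, a subunit of the tRNA splicing endonuclease, by 0.92 (SE 0.12). Elac1, an endonuclease of tRNA processing, fell from 4.69 ± 0.67 to 2.13 ± 0.29 FPKM (n = 5 per group), by 0.86 (SE 0.11).

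Of 13 accessory and proofreading genes 7 rose and 1 fell as deposited, near the 57.2% of all genes that rose. With medians subtracted 3 rose and 5 fell, against 34.5% and 33.3% of all genes. With quantile normalization 2 rose and 7 fell, against 36.6% and 30.2% of all genes. Ptrh2, a peptidyl-tRNA hydrolase, and Aarsd1, an editing protein related to Aars, rose by 0.92 (SE 0.13) and 0.86 (SE 0.13). Sepsecs, which makes selenocysteinyl-tRNA from a seryl-tRNA charged by Sars and then phosphorylated, fell from 10.1 ± 0.48 to 6.25 ± 0.57 FPKM, by 0.61 (SE 0.07). Of 16 mitochondrial translation and genome expression factors 8 rose and 1 fell as deposited, 2 and 4 after subtracting medians and 1 and 4 after quantile normalization; the median change was 0.20. The share that rose as deposited was near the 57.2% of all genes. With either scaling the shares that rose and that fell were below those of all genes. The mitochondrial helicase Twnk rose by 0.75 (SE 0.13) and the ribosome recycling factor Mrrf by 0.49 (SE 0.08), the latter at 0.07 and not passing with quantile normalization, while the initiation factor Mtif3 fell by 0.45 (SE 0.07).

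Some members share exonic bases with another gene, and the TruSeq v2 kit does not mark strand. In GENCODE M21 the largest overlaps were 22.9% of the exonic bases of Iars2, with Rab3gap2 on the other strand, and 14.3% of those of Aars, with Exosc6 on the same strand. The rule for assigning such reads is not given in the sources used. Hars and Hars2, which form the histidine ratio, share 195 exonic bases on opposite strands, 7.97% and 4.56% of their own. Iars2 is part of the isoleucine ratio. The part of these overlaps in the values and ratios was not tested.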

How the data were processed

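RNA sequencing of polyadenylated RNA (TruSeq v2 kit, HiSeq, per the labels' protocols) was deposited as a table of FPKM per gene computed by the authors, per the file headers. The submitters' processing notes name mm10, TopHat2 2.1.0, Cufflinks 2.2.1, RSEM 1.2.15 and Salmon 0.8.2 without saying which made the table, and 1 line without values was left out. FPKM depends on what other genes take of a library.

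The sample type label gave the 2 groups. Every gene averaging 1 FPKM or more, 13016 in all, entered a single limma 3.58.1 model (R 4.3.3) of log2(FPKM + 1) on group, with a mean-dependent prior variance and robust shrinkage, and two-sided p-values were adjusted by Benjamini-Hochberg over all 13016, with calls at 0.05. The added 1 makes the fold change of low genes too small. Simulated data were used to test the model.

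Of the genes that the symbol rule matched, 1 is not reported here. The members and lists were chosen with earlier results of these data known. Values are given library by library for the 5 cytosolic and 3 mitochondrial genes with the largest changes. The 3 of each with the lowest, and Wars, Gars, Kars and Eprs, are given the same way. From each list other than the markers, up to 2 genes with the largest rise and 2 with the largest fall are described, mostly by log2 change. The markers are given mostly as counts and means. Other genes were named after their values were seen. Alternatives were pseudocounts of 0.1 and 5, no filter, medians subtracted, quantile normalization, a replicate block, each library left out, and tumours 2 and 4 left out; the last combined with subtracted medians was chosen after seeing the data.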

Additional observations from a re-analysis of the deposited data

Results flagged for a closer look

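In 130 groups of 5 libraries (72 of them of synthetase genes), 8 had a highest or lowest library far from the others for the range of the group; chance alone flags about 1 in 20. In the synthetases, Dars was at 43.64 FPKM in tumour 3 against at most 37.26 in the other tumours, and Tars2 at 16.70 FPKM in tumour 2 against at least 20.91. Tumour 2 was also the lowest tumour for Aimp2, at 27.75 FPKM against at least 35.38, and the highest for Cdx2, at 58.95 FPKM against at most 7.59, Cd79a, at 6.70 against at most 1.99, and Csf1r, at 46.97 against at most 26.74. Itgam was at 13.23 FPKM in tumour 5 against at most 9.38, and Cd79a at 17.63 FPKM in adjacent sample 3 against at most 6.86.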

How the results depend on the processing

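The cytosolic count of 17 risen genes ranged from 12 to 17, and the ratio of both enzymes kept its sign for each of the 11 amino acids that passed, under every alternative run.

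With medians subtracted, alone or with the replicate block, 2 cytosolic genes fell, and 3 mitochondrial genes rose and 7 fell. The mitochondrial counts were the same with tumours 2 and 4 also left out. With quantile normalization 3 mitochondrial genes rose and 7 fell. Without tumours 2 and 4 alone, 17 cytosolic genes rose. These 2 tumours hold the highest tumour values of Wars, so its difference there, -0.56, is given with no test. With no filter 1 mitochondrial gene fell. Leaving out each library in turn gave 17 cytosolic genes risen, 0 to 1 fallen (1 without tumour 2), 8 to 9 mitochondrial risen and 0 fallen.

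Among genes called under either setting, signs changed with medians subtracted, without and with the replicate block, for Cars2 (-0.31), Wars2 (-0.33), Yars (-0.28), Hars2 (-0.01), Kars (-0.06), Pars2 (-0.03) and Qars (-0.04), and with quantile normalization for Cars2 (-0.34), Wars2 (-0.50), Ears2 (-0.08), Hars2 (-0.02), Mars2 (-0.07), Pars2 (-0.21) and Vars2 (-0.01); the scalings remove a shift of 0.35 in the median gene. Signs also changed, with no call under either setting, for Tars with medians subtracted (-0.23) and for Tars (-0.01) and Yars (-0.15) with quantile normalization.

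In the lists, the accessory genes gave 3 risen and 5 fallen with medians subtracted, 2 and 5 with the block added, 2 and 7 with quantile normalization, and 2 fallen without tumours 2 and 4. The tRNA processing genes gave 3 fallen with medians subtracted, with or without the block, and 14 risen and 2 fallen with quantile normalization. The amino acid response gave 1 fallen with no filter, 1 with the replicate block and 5 with the block and medians subtracted, and 1 to 2 with libraries left out. The mitochondrial factors gave 2 risen and 4 fallen with medians subtracted, 1 and 3 with the block added, and 1 and 4 with quantile normalization. The interferon-gamma list gave 5 risen with the replicate block, and 2 to 6 risen and 1 to 2 fallen with single libraries left out. Its counts without tumours 2 and 4 are not given, since these tumours have the highest means of this list.

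The titles' numbers were not taken to pair the samples: deviations from group means correlated within like-numbered pairs at 0.0231, 0.321, 0.0223, 0.161 and 0.422, and 2 of 5 tumours correlated best with their own number. With the replicate block the ratio test gave 0 amino acids higher and 0 lower, since its smallest possible p is 0.0625; with libraries left out it gave 8 to 9 higher and 3 lower. Over all genes the block gave 7534 risen and 2533 fallen, against 7442 and 2509. With each library's median subtracted 50.9% of called genes were higher in tumours, against 74.8% as deposited.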
